A study of Glycyrrhiza uralensis with 30 samples.

Results

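A set of 169 genes of *Glycyrrhiza uralensis*, a licorice, was described that was higher in roots late in a simulated drought, at 12 and 24 h, and that met limits on change in roots at 2 h and in stems and leaves at 2 and 24 h. The genes were chosen by measured values. The deposited TPM (a length-normalized transcript abundance scaled within each library) was put on the log2(TPM + 1) scale and averaged over the 3 libraries of a group. A member had a root mean at least 1 above the root control at both 12 h and 24 h, which is 2-fold on this scale. It lay less than 1 from control in roots at 2 h and in stems and leaves at 2 h and 24 h, and its highest group mean was at least 5 TPM. Of 34445 genes, 20877 reached 5 TPM in some group, 737 of them met the root condition at 12 and 24 h, and 169 met all conditions. The limit of 300 genes in the rule was not reached.

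RNA was sequenced from roots and from aboveground parts (stems and leaves, called shoots here) of seedlings in 30 libraries, 3 in each of 10 groups. Treated groups were kept for 2, 6, 12 or 24 h in MS nutrient solution with polyethylene glycol 6000 (PEG, a polymer that makes water harder to take up) at 100 g/L. The control of each part was taken at 0 h and is labelled distilled water. The seedlings are labelled as 60 days old, while the protocol mentions 1 week of hydroponics. No line or cultivar is named. No untreated plants of the later times are among the samples used, so PEG, the change of medium and the hours that passed cannot be told apart in any difference from control. No label says that replicate libraries are from separate plants, so the tests measure the spread between libraries, which may be technical. Libraries are named by the numbers in their titles, which are 31 to 33 for control, 1 to 3 for 2 h, 4 to 6 for 6 h, 7 to 9 for 12 h and 10 to 12 for 24 h.

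As background, roots meet a fall in outside water potential first. They are known to respond in phases: fast ion and calcium signals and early transcription factors, then abscisic acid, a stress hormone, and later products such as protective late embryogenesis abundant proteins, enzymes that make compatible solutes, water channels and wall enzymes. Genes that rise only after many hours are often studied as part of that later phase. The files do not pair the identifiers with gene names, and no annotation was used here, so none of the 169 genes can be placed in these classes and neither organ could be checked against its marker genes. For this reason 4 members are given by identifier, and others by their rank in the order of the smaller of the 12 h and 24 h root differences, where rank 1 is the largest.

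Libraries had a summed TPM of 928931 to 972586, and since TPM holds no read counts, depth and the counting error of low values are unknown. Among root libraries, the 1172 genes that were at least 3 higher in shoot than in root controls (log2(TPM + 1)) had a median level of 1.77 in library 3 (2 h). Library 6 (6 h) had 1.6, and the other 13 root libraries had 0.81 to 1.2. For the 655 genes with the reverse bias, library 3 had a median level of 4.92 and library 6 one of 5.67, next to 5.56 to 5.75 in the other 13. The members lay lowest in the same libraries of their groups: their median difference from the control mean was 0.06 in library 3, with 0.54 and 0.80 in libraries 1 and 2, and 0.51 in library 6, with 0.73 and 1.01 in libraries 4 and 5. The part of this in the values at 2 and 6 h was not tested. In bulk tissue, a change in the share of a cell type and a change of RNA per cell cannot be told apart.

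At 6 h, a time whose difference the rule left free, most members lay above root control, although limma's adjusted test passed 1 of the 168 tested, where 0.0909% of all genes rose. All root times share the 3 controls that chose the members, so a low control value raises every difference below, and the 2 h values were also bounded by the rule. On the log2(TPM + 1) scale the 2 h median of the members lay 0.51 above root control and the 6 h median 0.78 above it. The medians of the later groups, set by the rule, were 1.34 (12 h) and 1.44 (24 h). The median of all 20877 genes of at least 5 TPM lay at -0.10, 0.03, 0.02 and 0.02 in these groups. At 2 h, 140 of 169 members were above control, although the rule held them under 1. This is 82.8%, next to 42.4% of the 20877 genes. At 6 h, 154 were above control, 58 were at least 1 above it and 1 was at least 1 below. These are 91.1%, 34.3% and 0.592%, next to 53.4%, 5.29% and 3.63% of the 20877 genes. The working description "up only at 12 and 24 h" therefore holds as the rule defines it and not for 6 h: 133 members had a 6 h mean between control and 12 h, 21 had one at or above that of 12 h, and 15 were at or below control. The order control, 2 h, 6 h, 12 h, 24 h was strictly rising in 41 members, while 51 had a higher mean at 2 h than at 6 h. Without library 6, an alternative chosen after seeing the data, the 6 h median was 0.92 and 78 members were at least 1 above control.

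**Figure D1:**
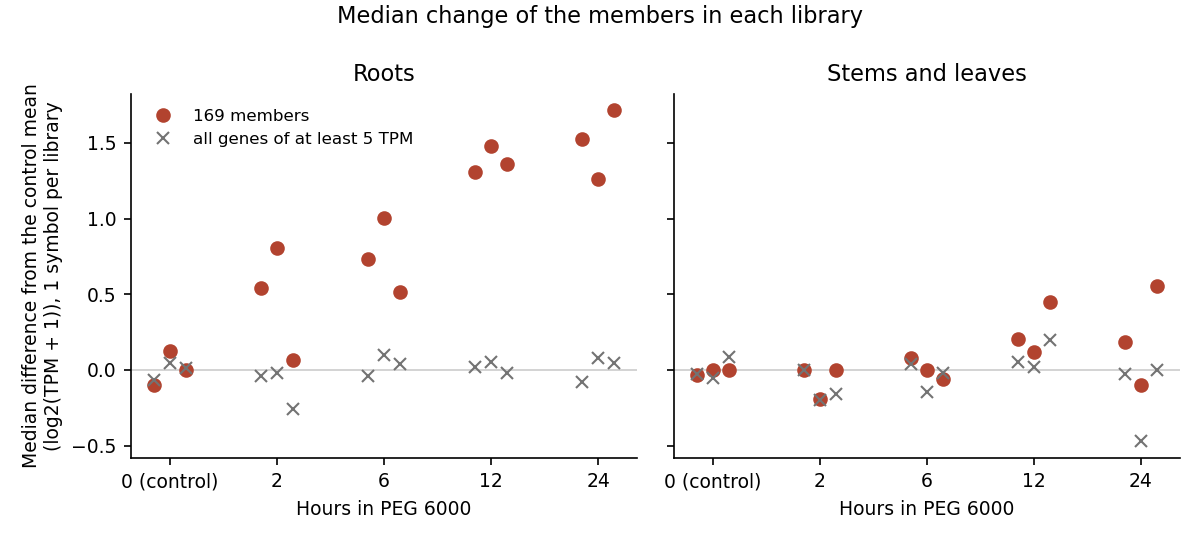
The vertical axis gives the median difference from the control mean on the log2(TPM + 1) scale, with 1 symbol per library, and the horizontal axis gives hours in PEG for roots (left) and shoots (right). Circles are the 169 members and crosses the 20877 genes of at least 5 TPM. In roots the members' medians were 1.31 to 1.48 at 12 h and 1.26 to 1.72 at 24 h, values that the rule selected for, and those of 6 h lay between 0.51 and 1.01.

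Between 12 and 24 h the members differed widely among themselves. Since the rule asked for at least 1 above control at both times, a median difference near 0 between them is built into the choice and nothing is read from it. The 24 h root mean minus the 12 h root mean had a median of 0.07 (log2(TPM + 1)), quartiles of -0.16 and 0.33 and a range of -1.61 to 2.20. The 24 h mean was the higher in 101 members, or 59.8%, next to 49.8% of the genes of at least 5 TPM. It was higher by at least 1 in 10 members, and in 3 the 12 h mean was at least 1 higher. These are 5.92% and 1.78%, next to 4.22% and 4.91% of the genes of at least 5 TPM, whose median was 0. All 24 h libraries lay above all 12 h libraries in 6 members and below them in 2. The same was not counted over all genes, so nothing is read from these 2 counts. The member of rank 49 had the largest further rise. It was listed at 0 in all controls and at 2 h, at 0, 0 and 9.42 TPM at 6 h, at 0, 0 and 17.9 TPM at 12 h, and at 13.5, 12.5 and 8.38 TPM at 24 h, so that 1 library carried its 12 h mean and all 3 carried that of 24 h. The member of rank 77 fell back most, from 27.7, 13.1 and 9.99 TPM at 12 h to 0.80, 4.73 and 14.2 TPM at 24 h, and these groups overlapped.

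Most members were of low or moderate abundance. The mean TPM in root control had a median of 3.32 over members, with quartiles of 1.18 and 9.34. It was under 1 TPM in 37 members, from 1 to under 5 in 66, from 5 to under 20 in 36, and 20 or more in 30. The median of the group means was 10.5 TPM at 12 h and 12.3 TPM at 24 h. In 51 members no group mean reached 10 TPM, and 17 had one of at least 100 TPM. Together the members made up 0.273% to 0.335% of the summed TPM of a root control library, 0.765% to 0.854% at 12 h and 0.770% to 1.08% at 24 h. All 3 controls listed 7 members at 0, and 27 were at 0 in at least 1 control. Their spread was wide: the SD over the 3 libraries (log2(TPM + 1)) had a median of 0.53 in control, 0.50 at 12 h and 0.63 at 24 h, and 0.33, 0.26 and 0.37 over all genes of at least 5 TPM.

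Glyur000837s00027492 had the largest of the smaller differences among members with at least 10 TPM in some group and no overlap with control. In roots it was at 3.13, 1.1 and 0 TPM in control, 5.07, 8.38 and 0 TPM at 2 h, and 12.4, 0 and 0 TPM at 6 h. It was at 20.8, 8.26 and 44.99 TPM at 12 h and at 21.3, 28.8 and 23.6 TPM at 24 h. All 6 late libraries were above all controls, and at 2 and 6 h the values scattered from 0 upwards. The differences from control were 3.35 at 12 h and 3.63 at 24 h (log2(TPM + 1)), values that named it. In limma's fit that of 12 h did not pass (adjusted p = 0.125) and that of 24 h did (adjusted p = 0.0480). Since the rule used both, nothing is read from these p-values. It was listed at 0 in all 15 shoot libraries. It is 1 of 5 members with no value above 0 in shoots, and 12 members stayed under 1 TPM in all of them.

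Glyur000026s00001866 was the most abundant member late in treatment. Its root level was 337.6, 351.2 and 218.9 TPM in control, 638.0, 718.6 and 229.1 TPM at 2 h, and 569.1, 467.6 and 507.6 TPM at 6 h. It reached 1119, 1122 and 1356 TPM at 12 h and 1651, 710.2 and 1515 TPM at 24 h. The low value at 2 h is from library 3, and the 12 h and 24 h libraries lay above all controls. The differences were 2.01 and 2.03 on the log2(TPM + 1) scale. In shoots it ranged from 22.2 to 29.5 TPM in control and from 27.6 to 62.4 TPM over the treated libraries. At 6 h it was 3.96 higher in roots than in shoots (SE 0.35, limma adjusted p = 3.20e-09, from 2.66e-09 to 1.17e-05 over the alternatives).

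Glyur000206s00012582 had the lowest 12 h minus 6 h difference in shoots among members of at least 10 TPM in some group. Its shoot level was 5.67, 20.7 and 25.7 TPM at 6 h and 21.7, 0 and 0 TPM at 12 h, and these groups overlapped. The difference of -2.47 (SE 1.32), which named it, did not pass limma's test (adjusted p = 0.358, from 0.193 to 0.655 over the alternatives). In roots it was listed at 0 in all libraries of control and 2 h. It had 10.6, 0 and 0 TPM at 6 h, 11.8, 0 and 0 TPM at 12 h, and 21.1, 4.79 and 0 TPM at 24 h, so that single libraries brought it past the rule. At 6 h its root minus shoot difference of -2.79 did not pass (adjusted p = 0.101), and passed without root library 4 (0.0325) and with the library number as a block (0.0329).

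Glyur003012s00040775 was the member most biased to shoots at 6 h. It had 70.4, 45.7 and 54.2 TPM in shoots and 0.58, 1.03 and 0.95 TPM in roots, with no overlap. The root minus shoot difference was -4.95 (SE 1.36, limma adjusted p = 0.00549, from 2.09e-05 to 0.0189 over the alternatives). This difference named it, so nothing is read from these p-values. Its late root values scattered over a wide range, with 3.79, 69.2 and 1.32 TPM at 12 h and 203.2, 24.8 and 0.31 TPM at 24 h, next to 2.12, 0.92 and 2.93 TPM in control. One library of each late group lay below the highest control.

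**Figure D2:**
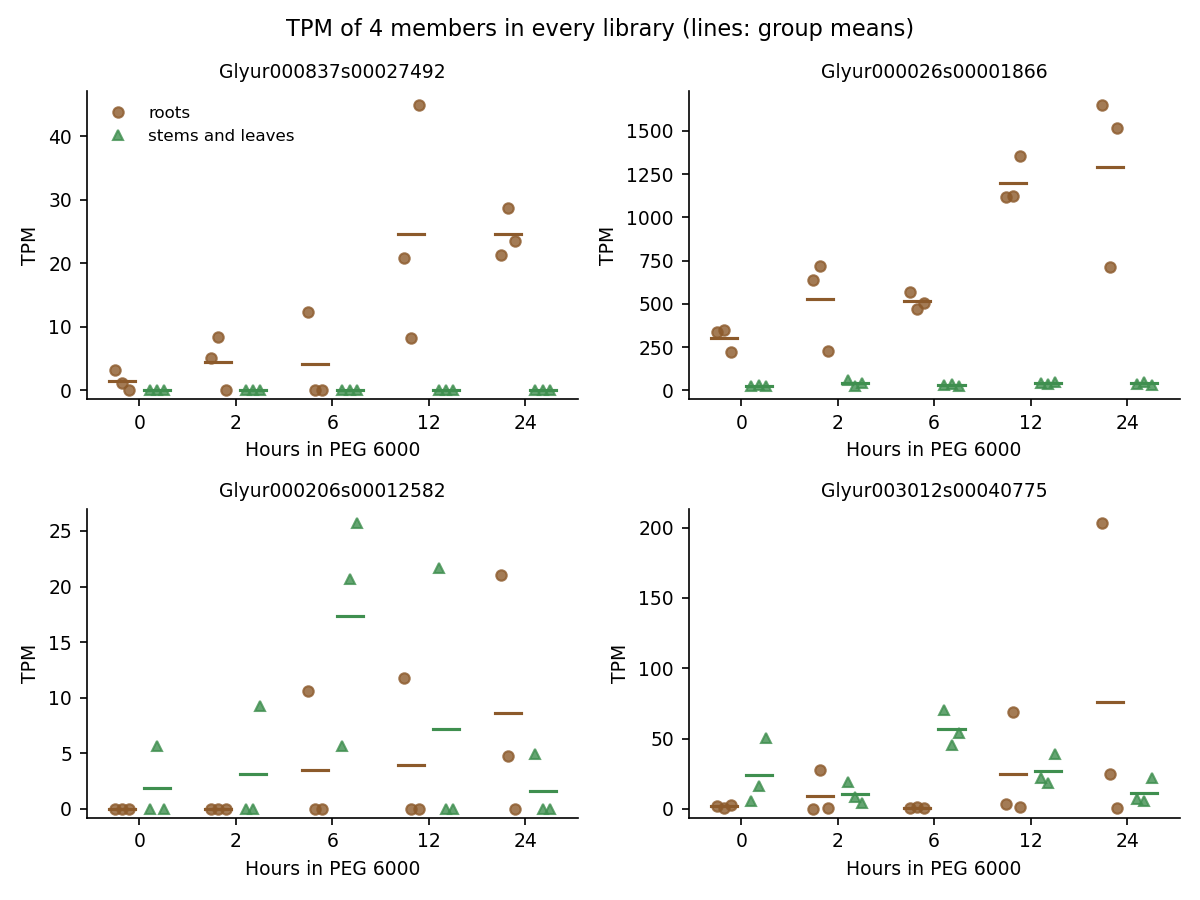
TPM (vertical axis, linear) of the 4 named members in every library, by hours in PEG, with circles for roots, triangles for shoots and lines for group means. The upper members show 6 late root libraries above the controls. In the lower members the late root means rest on 1 or 2 libraries, such as 203.2 TPM at 24 h, and the shoot values of 6 h lie above most of their root values.

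Single libraries carried a part of the set. A library was counted as high where it lay at least 1 above the control mean (log2(TPM + 1)). At 12 h all 3 libraries were high in 68 members, 2 in 74 and 1 in 27, and at 24 h the counts were 53, 100 and 16. All 6 late libraries were high in 27 members. In 62 members, 1 library of 12 h held more TPM than the other 2 combined, and at 24 h this was so in 73. The 6 late root libraries all lay above the 3 controls in 88 of 169 members. That is met by 6.22% of the 23107 genes tested in roots, and since the rule used these libraries nothing is read from the higher share.

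**Figure D3:**
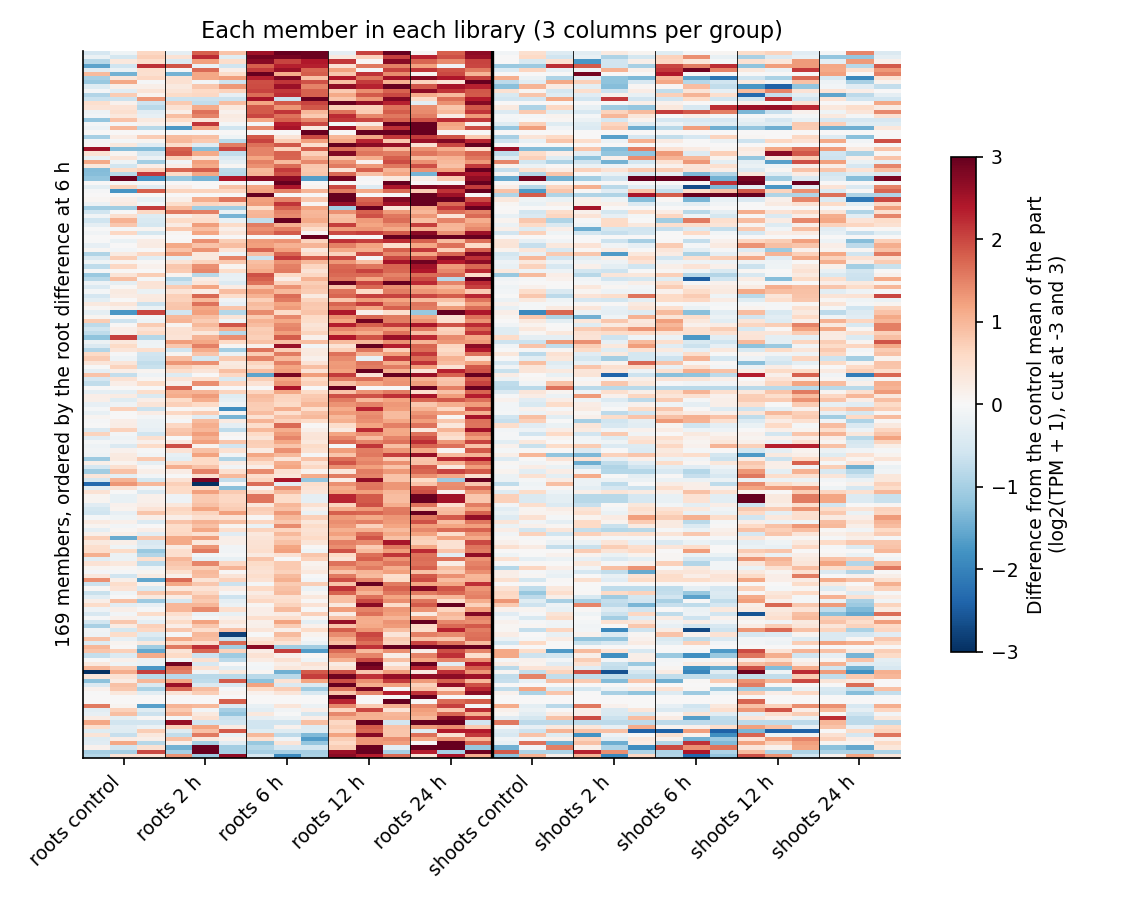
Each of the 169 members is a line and each library a column, 3 per group, with roots left of the thick line and shoots right of it. Colour gives the difference from the control mean of the same part (log2(TPM + 1), cut at -3 and 3). Lines are ordered by the root difference at 6 h, which ran from 3.43 to -1.11, and the root columns of 12 and 24 h are red by the rule.

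A minority of the members passed the limma test against control singly. On simulated data these fits recovered 23% (12 h) and 19% (24 h) of 2-fold changes, and 59% and 69% of 4-fold ones. There, a small random draw of the tested genes was changed and all others were not. The real data had more changed genes, and the members had a wider spread than most genes. These rates are therefore not those of the members. Not passing does not show that a member was unchanged. The filter of at least 1 TPM in 3 libraries left 168 members. Of these, 35 rose at 12 h and 65 at 24 h at an adjusted p under 0.05. At either time 0 fell, which the rule fixed in advance. Over all 23107 genes tested, 1.36% rose at 12 h and 4.49% at 24 h, and 222 and 887 genes fell. The rule used both contrasts, so these counts are descriptions. Of the members, 33 passed at both times and 101 at neither. These 2 counts were not taken over all genes, and nothing is read from them. At 6 h 1 member of 168 rose, where 0.0909% of all genes did, and 57 had an unadjusted p under 0.05 in that direction, where 5.93% of all genes did. This member, of rank 68, had 4.44, 3.42 and 6.26 TPM in root control and 21.6, 23.4 and 18.1 TPM at 6 h, a difference of 1.97 (adjusted p = 0.0165) with no overlap, and it shares its controls with the rule. Single libraries weighed on these counts. The 12 h count fell to 12, 9 or 8 when library 7, 8 or 9 was left out, and to 8, 23 or 15 when root control 31, 32 or 33 was. The 24 h count fell to 39 or 34 when library 10 or 12 was left out, and to 28 or 35 when root control 31 or 32 was. For 6 h it became 0 when library 4 or 5, or root control 31 or 32, was left out, and 2 when library 6 was.

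The change was smaller in libraries that had no part in the choice. Members were chosen again without 1 library of every group, by 3 choices in the order of title numbers, which gave 153, 194 and 176 genes, and their change was read in the left-out libraries, 1 against 1. At 12 h the median was 1.47, 1.51 and 1.38 in the libraries that chose them and 0.97, 0.97 and 0.42 in those left out, where the median of all genes of at least 5 TPM was 0.09, 0.01 and -0.04. At 24 h it was 1.42, 1.52 and 1.45 against 1.19, 0.71 and 0.78, with 0, 0.03 and 0.02 over all genes. In the left-out libraries of 12 h, 79.7%, 80.9% and 61.9% of the chosen genes were above control, next to 55.7%, 50.5% and 44.1% of all genes. At least 1 above it were 49.0%, 47.9% and 31.8%, next to 10.5%, 8.91% and 9.24%. At 24 h, 78.4%, 76.8% and 69.9% were above control, next to 48.3%, 51.7% and 50.8% of all genes. At least 1 above it were 58.2%, 37.6% and 44.3%, next to 11.3%, 10.3% and 12.3%. In all 3 choices the left-out median lay above that of all genes, at 0.42 to 1.19, next to 1.34 and 1.44 for the full set. The choices share most of their libraries, so they are not independent repeats. The full set also had a wider spread than all genes of at least 5 TPM (median SD in root control 0.53 against 0.33). The shares above are therefore not matched for spread, and nothing is read from their distance to all genes. With 1 library per group no test is given.

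**Figure D4:**
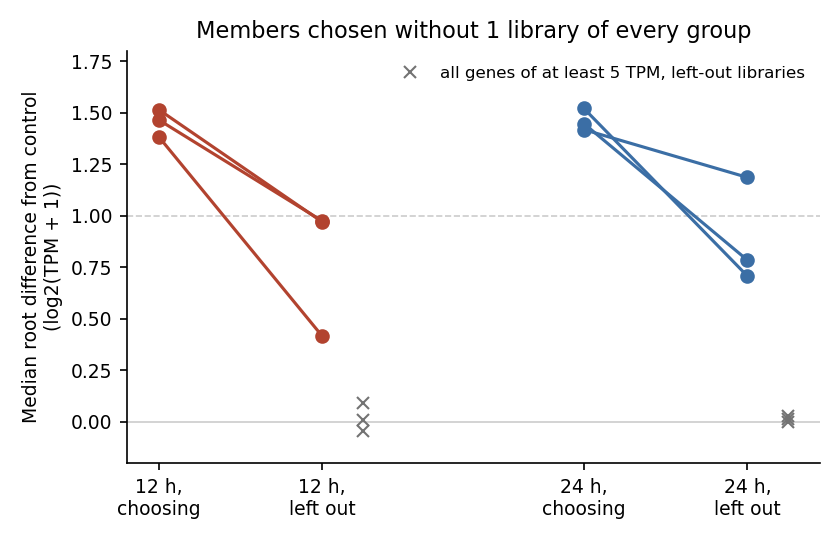
Median root difference from control (log2(TPM + 1)) of genes chosen without 1 library of every group, in the libraries that chose them and in the libraries left out, at 12 h and 24 h. Each line is 1 choice and crosses are the medians of all genes of at least 5 TPM in the left-out libraries. All 6 lines fall, to 0.42 at the lowest, and all end above the crosses.

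The edge of the rule does not divide distinct genes. The 3 members just inside had a smaller difference of 1.00 each, with root means of 0.81, 21.5 and 19.2 TPM in control and 3.18, 44.0 and 40.2 TPM at 12 h. The 3 genes just outside had 0.997, 0.994 and 0.991, with 8.32, 40.4 and 1.09 TPM in control and 20.4, 110.9 and 3.03 TPM at 12 h. From 0.9 to 1 there were 48 genes that met every other condition, and 48 members lay under 1.1. The median of the smaller difference was 1.23, and 8 members reached 2.

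Between 6 and 12 h in shoots, a contrast whose libraries set no difference in the rule, few members passed the adjusted test. These groups still entered the rule through its floor of 5 TPM. The highest group mean was that of shoots at 12 h in 18 members and that of shoots at 6 h in 7. A high value in either group could thus admit a gene, so nothing is read from the shares below. Of 140 members tested in shoots, 2 were higher at 12 h and 1 lower (limma, adjusted p under 0.05), which is 1.43% and 0.714%, where 0.497% and 1.14% of 23541 genes were. The median difference was 0.39 over members and 0.18 over all genes. With median-ratio rescaling, which moved the median of all genes to 0.03, that of members was 0.29. At an unadjusted p under 0.05, 30 of the 140 members were higher and 5 lower, where 10.9% and 5.77% of all genes were. Of the 169 members, 32 lay at least 1 higher at 12 h and 10 at least 1 lower, or 18.9% and 5.92%, next to 12.1% and 5.41% of the genes of at least 5 TPM. The 3 members were singled out after their values were seen. Rank 61 was at 38.1, 30.6 and 29.1 TPM at 6 h and 62.0, 66.3 and 70.9 TPM at 12 h in shoots, a rise of 1.01 (SE 0.23, adjusted p = 0.0439), and its shoot controls and other treated shoot libraries lay at 39.3 TPM or below. Rank 107 went from 5.22, 1.11 and 1.67 TPM to 6.52, 12.3 and 14.7 TPM, a rise of 1.83 (SE 0.42, adjusted p = 0.0483). Rank 51 fell from 24.5, 21.1 and 16.3 TPM to 1.36, 2.78 and 5.67 TPM, by 2.45 on the log2(TPM + 1) scale (SE 0.52, adjusted p = 0.0338). In all 3 the groups of 6 h and 12 h did not overlap, yet the count of 3 became 1, 0 or 1 without shoot library 4, 5 or 6 and 0, 1 or 1 without library 7, 8 or 9. The member that passed without library 6 was not among the 3, nor was the member that passed without library 8.

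Against the shoot control, the rule set no limit on change at 6 and 12 h, though its floor of 5 TPM could be met there. The median difference was 0 at 6 h, with 6 members at least 1 above control and 8 at least 1 below, or 3.55% and 4.73%, next to 3.52% and 6.76% of the genes of at least 5 TPM. At 12 h it was 0.26, with 18 above and 3 below, or 10.7% and 1.78%, next to 5.43% and 3.94% of all genes of at least 5 TPM, whose median was 0.10. The largest shoot difference at 12 h was 2.48, in the member of rank 149. It had 3.81, 1.06 and 4.98 TPM in shoot control and 22.1, 22.8 and 17.7 TPM at 12 h, and was back at 3.88, 4.66 and 3.6 TPM at 24 h. Its 12 h values all lay above the controls, and those of 24 h overlapped them. At 24 h, where the rule kept differences under 1, the median was 0.21, and 111 of 169 members were above control, or 65.7%, next to 39.9% of the genes of at least 5 TPM. The shoot libraries also differed in 655 genes that were at least 3 higher in root than in shoot controls. The median level of these genes in shoots was lowest in library 11, at 0.66, and highest in library 12, at 1.97, both of 24 h, where the members' median difference was -0.10 and 0.56. The 12 h libraries 7, 8 and 9 had 1.63, 1.45 and 1.95, beside a members' median difference of 0.21, 0.12 and 0.45. The shoot controls had 0.86, 1.05 and 1.77. The part of this in the shoot values was not tested.

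At 6 h most members that differed between the parts were higher in roots. A limma fit of all 30 libraries tested 168 members, of which 66 were higher in roots and 19 in shoots, which is 39.3% and 11.3%, where 23.4% and 15.8% of 25420 genes were. The rule asks for a rise in roots and limits changes in shoots, and its floor of 5 TPM can be met in either part. The highest group mean was that of roots at 6 h in 9 members and that of shoots at 6 h in 7. Nothing is therefore read from the distance of these shares to all genes. In 11 members no root group mean reached 5 TPM, so that shoots alone met the floor. The median root minus shoot difference was 0.96 over members and 0.19 over all genes, and 0.75 and 0 with median-ratio rescaling. The largest was in the member of rank 112, at 73.5, 96.5 and 72.6 TPM in roots and 1.25, 0.32 and 0 TPM in shoots, a difference of 5.82 (adjusted p = 9.02e-10) with no overlap. It was picked by this difference, so nothing is read from its p-value. Between root and shoot controls the median difference was 0.07, with 41 members at least 1 higher in roots and 34 at least 1 higher in shoots. These are 24.3% and 20.1%, near the 19.5% and 19.1% of the genes of at least 5 TPM. In the PEG groups of 2, 12 and 24 h it was 0.62, 1.02 and 1.48, and in the last of these 105 members were at least 1 higher in roots and 13 in shoots. These are 62.1% and 7.69%, next to 26.3% and 17.9%, and the rule bears on these values. The highest shoot group mean stayed above the highest root group mean in 42 members. The member of rank 3 is one of them, with 49.9, 18.1 and 37.1 TPM in roots and 36.2, 55.5 and 138.1 TPM in shoots at 12 h.

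**Figure D5:**
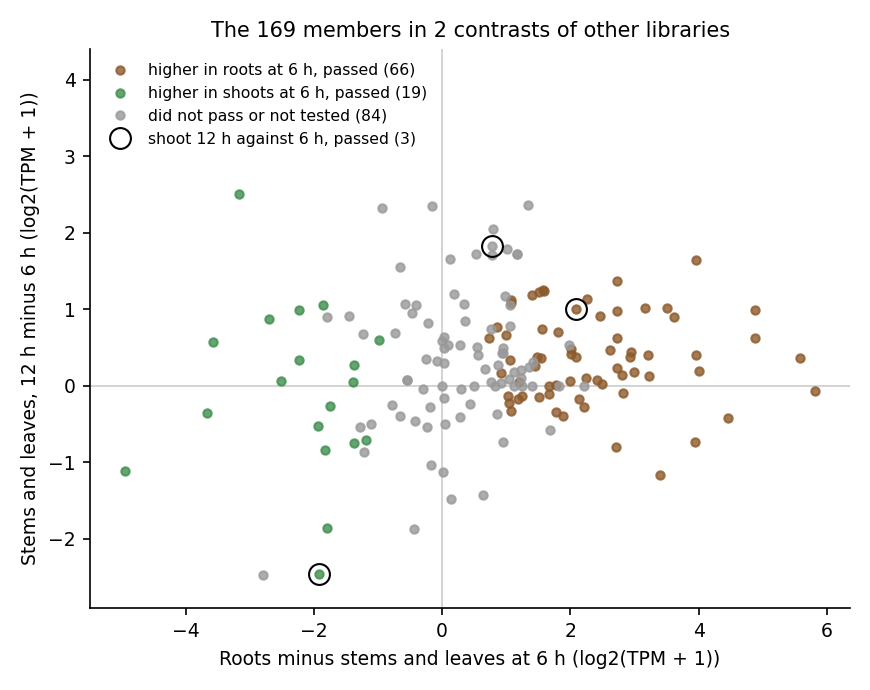
Each point is a member. The horizontal axis gives its root minus shoot difference at 6 h, and the vertical axis its shoot difference of 12 h minus 6 h, both on the log2(TPM + 1) scale. Colours mark the 66 members higher in roots and the 19 higher in shoots at 6 h by limma, and rings mark the 3 that passed in shoots between 6 and 12 h.

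Genes that met the same rule but for a root rise of at least 1 at 2 h were the nearest set, with 215 genes. They lay higher at each later time, with median root differences of 1.19, 1.97 and 2.12 at 6, 12 and 24 h, where the 169 members lay at 0.78, 1.34 and 1.44. Both sets share their controls, and these differences set the choice or lean on its controls, so no test is given. At 6 h, 100 of the 215 were higher in roots than in shoots and 15 lower, or 46.5% and 6.98%, where 23.4% and 15.8% of all genes tested were. In shoots 1 of 173 tested rose and 4 fell between 6 and 12 h, or 0.578% and 2.31%, where 0.497% and 1.14% of all genes tested did. The rule bears on these genes too, so nothing is read from the distance to all genes. Whether the sets differ in these shares was not tested.

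The identifiers hold 2 numbers, and 31 of the 169 members share their first number with another member, over 14 such numbers with at most 3 members each. Among these, 4 pairs stand at most 3 lines apart in the deposited tables. One pair, of ranks 15 and 77, was almost absent from shoots, where rank 77 reached 1.22 TPM in 1 library and rank 15 was listed at 0 throughout. The members of ranks 21 and 22, with different first numbers, have the same TPM in all 30 libraries. They count as 2 of the 169 members and as 2 of the 65 that rose at 24 h, though they hold 1 set of values. Near-identical copies can share reads, and how such reads were assigned is not stated, so single values of such members are uncertain, whether neighbours or not.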

How the data were processed

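The authors deposited 1 table of TPM per library, with the same 34445 genes and 2 decimals. Per the submitters' processing notes, the tools were HISAT2, StringTie and RSEM besides fastp, and also edgeR and DESeq2, with no version or role. Genome build and annotation: not given in the sources used here. TPM is scaled to the same nominal total in each library, so it holds shares and no depth, and a rise in abundant genes lowers all others.

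The members and settings were chosen with earlier results of these data known. log2(TPM + 1) was tested with limma 3.58.1 in R 4.3.3 (mean-variance trend, Benjamini-Hochberg adjustment over all genes tested, threshold 0.05), on genes with 3 or more libraries of the fit at 1 TPM or above. Fits used the 15 libraries of a part, or all 30 between parts. The fits were tested on simulated data. Named members were, by rule: largest smaller root difference with no overlap, highest late root TPM, lowest shoot difference of 12 h minus 6 h, and lowest root minus shoot difference at 6 h. No 2 libraries were identical. Same-numbered root and shoot libraries of 6 h deviated together (correlations over genes of 0.25, 0.33 and 0.22 for 4, 5 and 6), as read from the data and not from the labels, so the number was tried as a block. Over all 15 numbers the correlation was 0.0952 to 0.357. Gene lists by name could not be applied, since no names were paired. Figures were drawn with matplotlib 3.10.9.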

Additional observations from a re-analysis of the deposited data

How the results depend on the processing

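The count of 169 members was 128 with a pseudocount of 0.1 TPM, of which 79 were shared, 146 (91 shared) with group medians, 126 (120 shared) with quantile normalization, 115 (109 shared) with median-ratio rescaling, 213 with a floor of 1 TPM and 78 with one of 20 TPM. Without single libraries it was 143 to 223, and 107, 119 and 108 members were shared without root control library 31, 32 or 33. The median in left-out libraries was 0.416 to 0.975 at 12 h and 0.708 to 1.19 at 24 h.

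With only the 6 libraries compared, 0, 22 and 28 members passed in roots at 6, 12 and 24 h. Without single libraries the counts were 0 to 2, 8 to 23 and 28 to 53. Between 6 and 12 h in shoots, the 3 calls became 1 (1 higher, 0 lower) without a filter. The 2 higher became 1 with a pseudocount of 0.1 TPM, without trend, or with only the 6 libraries. Without single libraries the calls were 0 to 1, with 0 to 1 higher and 0 to 1 lower, and not always of the same members. The 85 root against shoot calls at 6 h stayed within 1.5 times in every alternative run, and were 97 (74 higher, 23 lower) with the replicate block. Other than for Glyur000206s00012582, the block changed no call of a named member. The causes of these changes were not tested, beyond there being fewer libraries. Unknown depth limits all low values.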
